A study of Rattus norvegicus with 6 samples.

Results

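NMDA receptors are glutamate-gated ion channels of excitatory synapses. Each channel joins the obligatory GluN1 subunit, encoded by Grin1, with GluN2 subunits encoded by Grin2a, Grin2b, Grin2c or Grin2d, and the GluN2 type sets the kinetics, magnesium block and partners of the channel. In the hippocampus, calcium entry through these receptors starts long-term potentiation, and GluN2A and GluN2B are the main GluN2 types of its pyramidal and granule cells, while GluN2D is known from interneurons and GluN2C chiefly from cerebellar granule cells and astrocytes.

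The 5 subunit genes, of 4736 genes named on a rat oligonucleotide array, were read by 11 of its 8799 probe sets. They are all the probe sets whose platform annotation names 1 gene and that gene is one of the 5: there are 4 for Grin1, 2 each for Grin2a, Grin2c and Grin2d, and 1 for Grin2b. Whole hippocampus of Syracuse High Avoidance (SHA) rats was compared with that of Syracuse Low Avoidance (SLA) rats, lines named for how well they learn two-way active avoidance, a task of crossing a box on a signal before a shock. Each line had 3 pools of 3 rats, numbered 1 to 3 in both lines, and each pool was read on its own array, so n = 3 per line. All rats of both lines had been tested, and tissue was taken 2 weeks later, so prior line differences and effects of testing cannot be told apart. The question was whether expression in the hippocampus differs between them. The labels do not say that the pools hold different rats, so p-values measure only the spread between these 6 pools. In whole tissue, fewer cells of a type and less RNA per cell cannot be told apart.

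Intensities are linear values as deposited, given as mean ± SD over the 3 pools of a line. A difference is the log2 value of SHA less that of SLA ± its standard error, with limma's test and p-values adjusted by Benjamini-Hochberg over the 6555 probe sets tested. All 11 subunit probe sets were bright enough to be tested, and none of their 66 values, which ran from 20.8 to 929.1, lay at the floor of 8.9. Deposited arrays had equal trimmed means of 250.3 or 250.4. Control transcripts of bacteria and a phage, added to each sample, had geometric means of 5458 and 12282 in SHA and SLA pool 1, 1121 and 639.7 in the pools numbered 2, and 2279 and 1564 in those numbered 3. Of the markers of hippocampal principal neurons, on the brightest probe set of each, Nrgn read 4273 to 7730 and Calb1 169.7 to 648.5. Camk2a read 132.6 to 315.3 and Neurod1 94.4 to 299.4. The probe set for Slc17a7, the vesicular glutamate transporter of these neurons, read only 3.5 to 66.6. Summed intensities of 7 interneuron and 7 astrocyte markers overlapped between the lines. Of the 7 interneuron markers 1 did not overlap by itself, Vip, at 66.2 to 90.7 in SHA and 24.6 to 59.9 in SLA. Summed intensities of 6 microglial markers did not overlap, at 503.7 to 572.4 in SHA and 686.9 to 1010.5 in SLA. Cd74 and C1qb were lower in every SHA pool. C1qb was the brightest of the list in every pool, and the members were not of 1 direction: the log2 difference was -2.67 for Cd74, -0.61 for C1qb, -0.39 for Cx3cr1 and -0.31 for Aif1, but 1.09 for Csf1r and 0.09 for Itgam. Itgam read 5.2 and 3.6 in SHA pools 1 and 2 and 5.4 in SLA pool 1, under the floor. Near the floor were Csf1r in SLA pools 2 and 3 (10.4 and 11.8) and Cd74 in SHA pools 2 and 3 (11 and 12.5).

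No NMDA receptor subunit differed between the lines beyond the spread of the pools. Of the 11 probe sets, 5 were higher and 6 lower in SHA, with a median difference of -0.07, beside a median of -0.01 over all probe sets tested. None had pools that were wholly above or below those of the other line, against 5.66% of all probe sets tested, and none had an unadjusted p under 0.05, against 1.50%. At an adjusted p under 0.05 there were 0 calls among all 6555 probe sets (98 at an unadjusted p under 0.05), so no call was made for any transcript. The smallest p of a subunit probe set was 0.36 and all 11 had an adjusted p of 1.00 in limma.

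**Figure D1:**
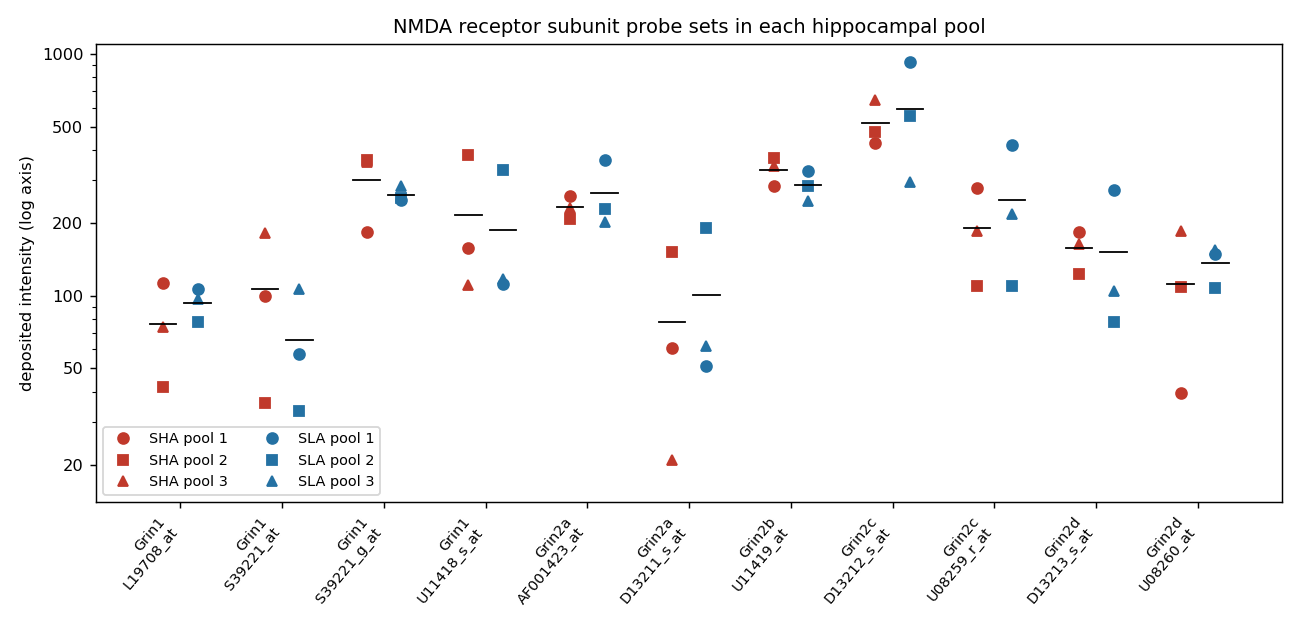
Deposited intensity (log axis) of the 11 subunit probe sets in each pool, SHA in red and SLA in blue, with the marker shape giving the pool number and black lines the means of 3 pools. The lines overlap for every probe set, and values range from 20.8 on Grin2a D13211_s_at to 929.1 on Grin2c D13212_s_at.

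Grin1 encodes the glycine-binding subunit present in every NMDA receptor, as a set of splice variants. Its brightest probe set, S39221_g_at, read 183.8, 364.7 and 357.4 in SHA pools 1 to 3 and 248.9, 252.5 and 284.2 in SLA pools 1 to 3. SHA pool 1 was the lowest of all 6 and the other two SHA pools were the highest, so the lines overlapped. The means were 302 ± 102 and 262 ± 19.4, a difference of 0.14 ± 0.33 (95% interval -0.59 to 0.88), which was -0.028 without SHA pool 2 and -0.014 without SHA pool 3. The SD was larger in SHA, and this was not tested.

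The other 3 probe sets of Grin1 did not follow S39221_g_at. U11418_s_at read 157.5, 380.4 and 110.3 in SHA and 111.4, 329.8 and 117.6 in SLA, so both pools numbered 2 stood well above the other 4 whichever the line. S39221_at, which names the same sequence as the brightest probe set, read 99.7, 36.0 and 182.3 in SHA and 57.1, 33.3 and 106.9 in SLA. There the pools numbered 2 were the lowest and those numbered 3 the highest. L19708_at read 112.9, 41.8 and 73.8 in SHA and 106.6, 77.4 and 96.6 in SLA, with the pools numbered 1 highest. The accession that the annotation gives for this probe set, AY157515, is not the one in its name. Differences were 0.20 ± 0.56 for U11418_s_at (-0.31 when SHA pool 2 was left out, -0.070 when SLA pool 1 was and -0.031 when SLA pool 3 was), 0.56 ± 0.69 for S39221_at and -0.40 ± 0.49 for L19708_at. Leaving out 1 pool moved S39221_at between 0.027 (SHA pool 3) and 1.20 (SHA pool 2), and L19708_at between -0.74 (SHA pool 1) and -0.023 (SHA pool 2). A pool that read high for Grin1 on one probe set thus read low on another, and the sign of the line difference depended on the probe set. Probe sets whose names end in _s_at are designed to match more than 1 transcript, so what they read beside Grin1 splice forms is uncertain.

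Grin2b encodes GluN2B, the subunit of early development that persists in the adult forebrain, and had the narrowest interval of all. U11419_at, its 1 probe set, read 284.8, 370.5 and 342.4 in SHA and 328.8, 284.0 and 246.8 in SLA. The highest pools were SHA pools 2 and 3 and the lowest was SLA pool 3, while SLA pool 1 lay above SHA pool 1. Means were 333 ± 43.7 and 287 ± 41.1, and the difference was 0.22 ± 0.26 (adjusted p = 1.00 in limma). Its 95% interval, -0.37 to 0.80, corresponds to SHA levels between 0.773 and 1.75 times those of SLA. The difference was 0.32 without SHA pool 1 and between 0.11 and 0.32 over the 6 fits that left out 1 pool each.

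Grin2a encodes GluN2A, which becomes abundant as synapses mature. AF001423_at read 258.8, 208.5 and 230.0 in SHA and 364.2, 228.5 and 202.6 in SLA. SLA pool 1 was the highest and SLA pool 3 the lowest. Means were 232 ± 25.2 and 265 ± 86.8, a difference of -0.15 ± 0.31, which was 0.11 without SLA pool 1. The second probe set, D13211_s_at, read 60.8, 151.6 and 20.8 in SHA and 51.1, 189.7 and 61.6 in SLA, with both pools numbered 2 highest as on Grin1 U11418_s_at. It differed by -0.55 ± 0.79, with the widest interval of the family (-2.31 to 1.22), and by 0.19 without SHA pool 3 and 0.04 without SLA pool 2.

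Grin2c encodes GluN2C, a subunit of channels with weak magnesium block. D13212_s_at, the probe set with the highest signal of the family, read 429.5, 476.8 and 643.2 in SHA and 929.1, 553.5 and 294.7 in SLA. SLA held both the highest and the lowest pool, with the 3 SHA pools between them. Means were 516 ± 112 and 592 ± 319, a difference of -0.07 ± 0.39, which was 0.33 without SLA pool 1, 0.05 without SHA pool 1 and 0.59 with array weights. U08259_r_at read 278.1, 109.2 and 185.4 in SHA and 418.3, 110.0 and 217.8 in SLA. It was highest in the pools numbered 1 and lowest in those numbered 2, and differed by -0.28 ± 0.52, or by 0.07 without SHA pool 2 and 0.20 without SLA pool 1. This was the only subunit probe set that was lower in SHA within each of the 3 numbers, by -0.59, -0.01 and -0.23.

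Grin2d encodes GluN2D, which gives slowly closing channels. D13213_s_at read 184.2, 123.0 and 163.3 in SHA and 272.9, 77.9 and 104.9 in SLA, with the highest and the lowest pools both in SLA. Its difference was 0.24 ± 0.49, and -0.13 without SLA pool 2. U08260_at read 39.7, 108.7 and 185.3 in SHA and 148.9, 107.4 and 154.6 in SLA, where SHA pool 1 stood below the others. Its difference of -0.54 ± 0.56 had the smallest p of the family, given above (adjusted p = 1.00 in limma), and was 0.070 without that pool. The probe sets of Grin2d, as those of Grin1, thus differed in sign.

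**Figure D2:**
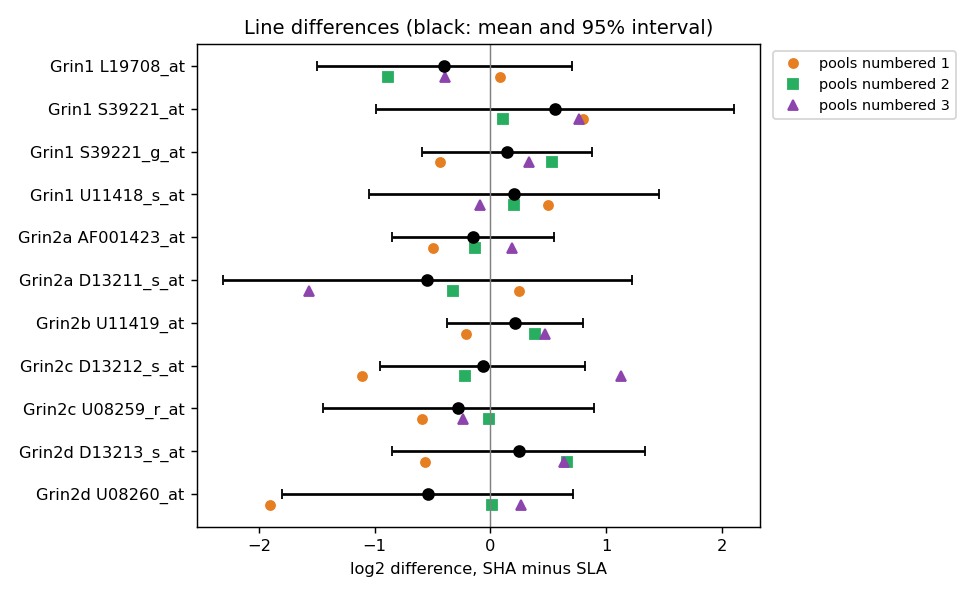
Log2 difference between SHA and SLA for each subunit probe set (black circle, with limma's 95% interval from 3 pools per line), and beneath it the difference between the pools that share a number. Every interval includes 0, and 9 of the 11 probe sets have numbers of both signs.

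Within pool numbers, SHA was above SLA in all 3 for Grin1 S39221_at (0.80, 0.11 and 0.77) and below in all 3 for Grin2c U08259_r_at, and the other 9 probe sets had mixed signs. In the fit with the pool number as a block, the count at an unadjusted p under 0.05 rose from 98 to 345 of all probe sets (5.26%), yet none of the 11 subunit probe sets was among them. The smallest blocked p of a subunit was 0.19 in limma, for Grin1 S39221_at, with an adjusted p of 0.84. The 6 arrays limit what could be seen. In the fit without the block, the half-width of the 95% intervals ran from 0.59 to 1.77 on the log2 scale. Variation between the pool numbers is part of those widths.

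The subunit probe sets varied more with the pool number than with the line. With the variation over 6 pools split into line, number and remainder, the line held a median of 6.72% and the number 69.4% over the 11 probe sets, and the number's share was the greater in 10 of 11. The same medians over all probe sets tested were 7.61% and 62.4%, and the number's share was greater in 85.3% of them. The number has 2 degrees of freedom and the line 1, so the shares are not on an equal footing. Number held 95.5% on Grin1 U11418_s_at, 93.1% on Grin2c U08259_r_at, 86.7% on Grin1 S39221_at and 80.3% on Grin2a D13211_s_at. Grin2b was the exception, with 30.3% for line, 10.8% for number and 58.9% for the remainder. On Grin2c D13212_s_at the remainder held 81.1%, so its pools matched neither by line nor by number.

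**Figure D3:**
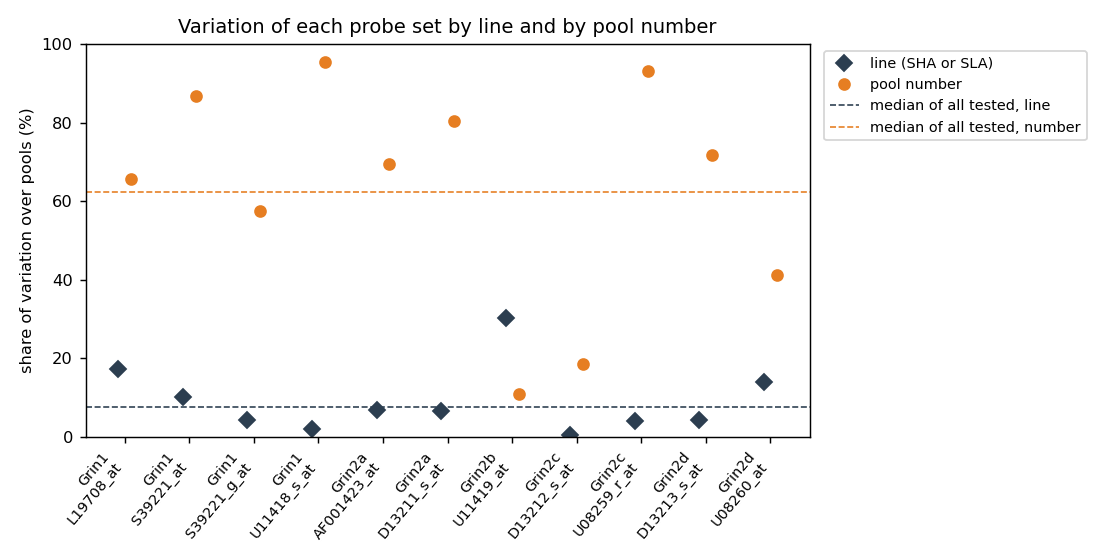
Share of the variation over 6 pools (percent of the sum of squares of log2 intensity) held by line (diamonds) and by pool number (circles) for each subunit probe set, with dashed lines at the medians of the 6555 probe sets tested. The number holds more than the line for each probe set except Grin2b U11419_at.

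Both pools of a number lay above or below the other 4 pools for 9 of the 11 subunit probe sets, beside 61.5% of all probe sets tested. Pools numbered 1 were the highest pair for Grin1 L19708_at, Grin2a AF001423_at, Grin2c U08259_r_at and Grin2d D13213_s_at and the lowest pair for Grin1 S39221_g_at. Pools numbered 2 were the highest pair for Grin1 U11418_s_at and Grin2a D13211_s_at and the lowest pair for Grin1 S39221_at and Grin2c U08259_r_at. Pools numbered 3 were the highest pair for Grin1 S39221_at and Grin2d U08260_at. Among all probe sets tested, 31.4% had the pools numbered 1 at one end, 36.0% those numbered 2 and 13.8% those numbered 3. The bacterial and phage controls were also highest in the pools numbered 1 and lowest in those numbered 2, and their part in the subunit values was not tested.

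Ordered by mean signal over the 6 pools, the probe sets ran from Grin2c D13212_s_at (554 ± 218) through Grin2b U11419_at (309.6 ± 45.5), Grin1 S39221_g_at (282 ± 69.5) and Grin2a AF001423_at (249 ± 59.9) to Grin2d D13213_s_at (154 ± 69.7), taking the brightest of each gene. This is an order of probe signal, not of transcript number, because probe sets differ in how strongly they bind their target. Probe sets of 1 gene also differed: the brightest of Grin1 read 3.32 times the dimmest, S39221_g_at against L19708_at, and those of Grin2a 2.79 times, of Grin2c 2.52 times and of Grin2d 1.24 times.

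On the brightest probe set of each gene, Grin2c came first in all 6 pools. That probe set is also an _s_at one, so what else it reads is uncertain. The other probe set of Grin2c, U08259_r_at, had a mean of 219.8, below the brightest of Grin2b, Grin1 and Grin2a. Grin2b lay above Grin1 in 4 of 6 pools and Grin1 above Grin2a in 4 of 6, so these neighbours did not separate, and the ranges of all neighbouring probe sets overlapped. Grin2d was last of the 5 in the 4 pools numbered 2 and 3, and Grin1 was last in both pools numbered 1. For these brightest probe sets, the order of the line means was the same in SHA and SLA, except that Grin1 and Grin2a exchanged the third and the fourth place. Grin2c D13212_s_at lay at the 86.9th percentile of mean intensity among all probe sets other than controls, Grin2b U11419_at at the 78.3rd and Grin1 L19708_at, the dimmest, at the 48.0th.

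Ratios between subunits within an array leave out that array's scaling. They compare transcript signals in whole tissue and do not measure the composition of receptors. The ratio of Grin2a to Grin2b, which rises as forebrain synapses mature, was -0.14, -0.83 and -0.57 on the log2 scale in SHA pools 1 to 3 and 0.15, -0.31 and -0.28 in SLA pools 1 to 3. SHA pools 2 and 3 had the lowest ratios and SLA pool 1 the highest, while SHA pool 1 lay above SLA pools 2 and 3. The means were -0.51 ± 0.35 and -0.15 ± 0.26, a difference of -0.36 (p = 0.3, adjusted p = 0.9 over 5 ratios, two-sided exact permutation test, where 3 pools against 3 allow no p under 0.1). SHA was lower within each number, by -0.29, -0.52 and -0.29 (p = 0.25, exact sign-flip test, the smallest that 3 pairs allow).

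Each GluN2 gene was also set against Grin1. Differences between the lines were -0.29 for Grin2a, 0.08 for Grin2b, -0.21 for Grin2c and 0.10 for Grin2d, with exact permutation p-values of 0.5, 0.9, 0.9 and 0.9 and an adjusted p of 0.9 for each. Each of these 4 ratios was highest in the pool numbered 1 of its line. All 4 share the denominator Grin1 S39221_g_at, so these are not separate observations. That probe set was lowest in the pools numbered 1 (183.8 in SHA and 248.9 in SLA). The SD of a ratio within a line ran from 0.31 to 0.99, above the line difference in every case. Leaving out 1 pool moved the Grin2a ratio between -0.69 (SHA pool 1) and -0.00011 (SLA pool 1). Without 1 pool the sign changed for Grin2b (SHA pool 1 or SLA pool 3), Grin2c (SHA pool 2 or SLA pool 1) and Grin2d (SHA pool 1, SLA pool 2 or SLA pool 3). Ratios of this kind compare probe signals, so a level above or below 0 does not give the number of subunits.

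**Figure D4:**
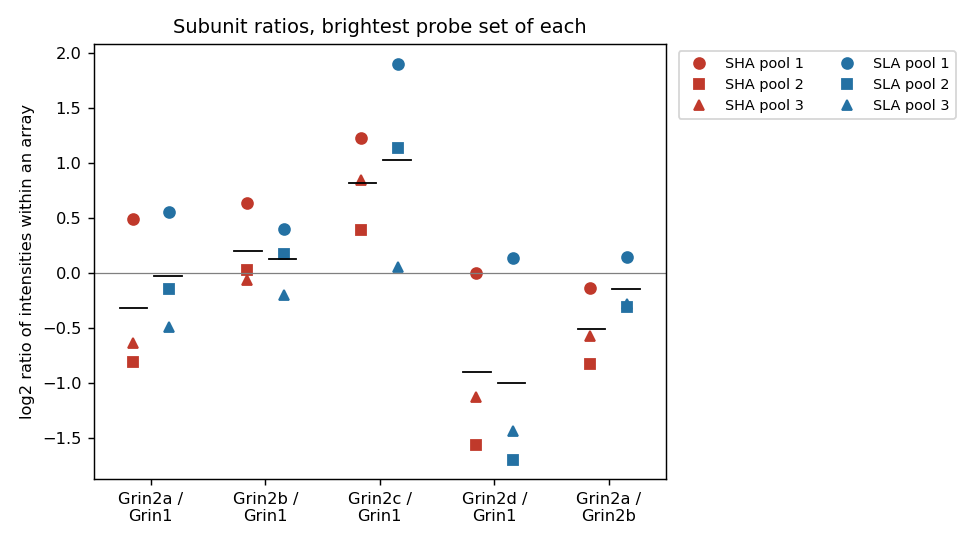
Log2 ratio of intensities within an array for 5 pairs of subunits (brightest probe set of each), by pool, with SHA in red, SLA in blue and black lines at the means of 3 pools. The lines overlap for all 5 ratios, and the pools numbered 1 are the highest of each line. Grin1 S39221_g_at, the shared denominator of the ratios over Grin1, was lowest in those pools.

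The genes whose pattern over the 6 pools was most like that of each subunit's brightest probe set were taken from 5371 tested probe sets with 1 gene symbol. Likeness is Pearson's r of log2 intensity over 6 pools, which share array, pool number and line, and it is a description. The Grin1 pattern was closest to Basp1, a membrane protein of axon terminals (r = 0.983), Pabpc4, a poly(A)-binding protein (0.975), and Pakap (0.959). Grin2a was closest to Or8c18, an olfactory receptor gene (0.995), Ier5, an immediate-early gene (0.989), and Gse1 (0.986). Grin2b was closest to Psap, the precursor of the lysosomal saposins (0.983), Apba2, an adaptor of presynaptic and trafficking complexes (0.970), and Copb2, a coat protein of Golgi vesicles (0.968). Grin2c was closest to Smad2, a transducer of TGF-beta signals (0.976), Tmbim6, an inhibitor of cell death in the endoplasmic reticulum (0.975), and Slc25a20, the mitochondrial carnitine carrier (0.968). Grin2d was closest to Unc13a, which primes synaptic vesicles (0.994), Alox5ap, of leukotriene synthesis (0.985), and Adra2b, an adrenergic receptor (0.984). The number of probe sets with r over 0.9 ran from 11 for Grin2b to 103 for Grin2d. With 6 pools and 5371 candidates, values of r this high can arise by chance, and no chance level was computed. The genes named are therefore not shown to be expressed together with a subunit.

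The receptor's neighbours were read from lists of 73 genes, of which 57 were on the array and 52 were tested, on 98 probe sets. None passed at an adjusted p under 0.05 in either direction, and none had an unadjusted p under 0.05. In the fit with the pool number as a block 5 of the 98 had one, beside 5.26% of all tested: Slc1a3 S59158_at, Homer2 AB007690_s_at, Ppp3cb M31809_at and Snap25 AB003991_g_at and AB003992_s_at, each at an adjusted p of 0.83 in limma. Of the 98 probe sets 70 were higher and 28 lower in SHA, with a median of 0.14, beside 3155 higher and 3400 lower among all tested. Pools did not overlap for 2 of them (2.04%, against 5.66% of all tested): Camk2b M16112_at, higher in SHA by 0.13, and Camk2g S71570_s_at, lower by -0.24, both subunits of the calcium-dependent kinase that binds active NMDA receptors and both named after their values were seen. The other probe set of Camk2b differed by 0.02, and the other 2 of Camk2g by 0.42 and -0.86. Without SLA pool 1, 56 of 99 were higher, with a median of 0.07.

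Among the other members of the family, Grin3a, which encodes a glycine-binding subunit that lowers calcium entry, read 64.0 to 177.2 in SHA and 38.0 to 123.9 in SLA on AF061945_at, a difference of 0.67 ± 0.59. Its other 2 probe sets differed by 0.51 and -0.02. Grina, a membrane protein named for its link to the receptor but not a channel subunit, differed by 0.02 and -0.10.

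Scaffold genes, which anchor the receptor in the postsynaptic density, had 20 probe sets higher and 8 lower with a median of 0.24. Homer2, a linker between metabotropic and NMDA receptor complexes, had the smallest p of all the lists on AB007690_s_at, with 101.3, 140.8 and 21.1 in SHA and 225.3, 139.9 and 164.3 in SLA (-1.37 ± 0.67, adjusted p = 1.00 in limma). Its other 2 probe sets differed by -0.27 and 0.10. Dlg4, the scaffold PSD-95 that binds GluN2 tails, differed by -0.08 ± 0.38. The scaffold median was 0.05 without SLA pool 3 and 0.07 without SLA pool 1.

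Genes of transport and surface delivery, which carry and insert the receptor, had 9 of 9 probe sets higher in SHA, by 0.02 to 1.07, with a median of 0.34, and none of these differences passed. Of the 9 probe sets, 4 read Snap25, which acts in synaptic vesicle fusion, and 2 read Nsf, a fusion ATPase. The 9 probe sets thus stand for 5 genes. The count was 8 of 9 after quantile normalization, 6 of 9 without SHA pool 2 and 7 of 10 without SLA pool 1, where the median was 0.14. Medians within the numbers 1, 2 and 3 were 0.51, 0.10 and 0.46.

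Calcium and kinase targets had 16 higher and 5 lower, with a median of 0.16, which was 0.037 without SHA pool 3. Ppp3cb, a catalytic subunit of calcineurin, read 172.2, 219.8 and 233.7 in SHA and 15.0, 204.0 and 126.1 in SLA, where SLA pool 1 stood apart (1.51 ± 0.83, adjusted p = 1.00 in limma). Kinases and phosphatases that act on the receptor had 11 higher and 5 lower (median 0.05), among them Prkca, a protein kinase C, at 65.8 ± 24.6 and 32.0 ± 15.7 (1.09 ± 0.63). Co-agonist and glutamate supply had 5 higher and 3 lower (median 0.08), with Slc1a3, the astrocytic glutamate transporter, at 2807 ± 296 and 2092 ± 504 on S59158_at (0.45 ± 0.26) and at -0.40, 0.05 and 0.10 on its other 3 probe sets. That list turned to 3 higher and 5 lower (median -0.18) without SLA pool 1. Modulators, such as Bdnf and the metabotropic receptor Grm5, had 6 higher and 5 lower (median 0.02), and 3 of 10 higher (median -0.17) without SHA pool 3.

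**Figure D5:**
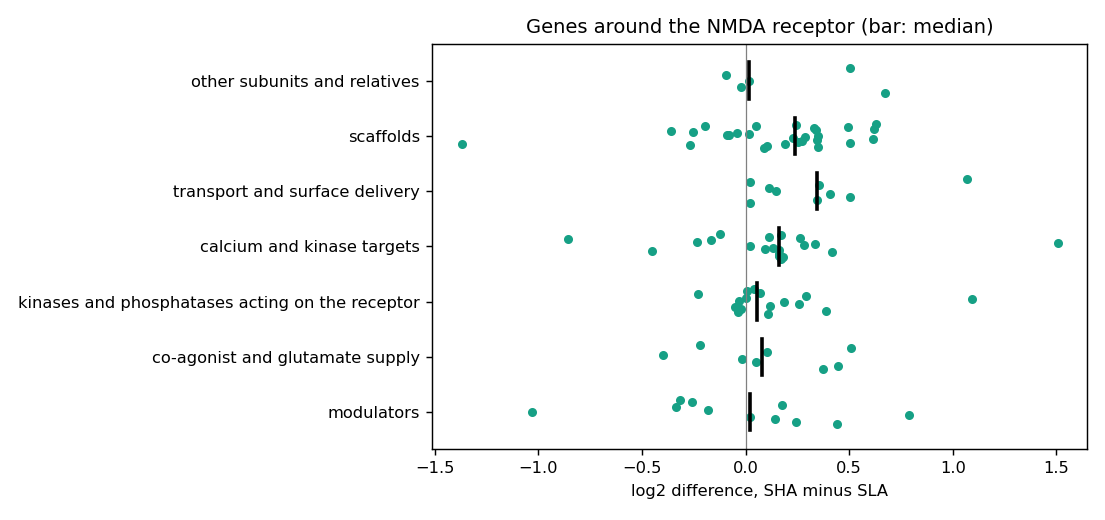
Log2 difference between SHA and SLA (horizontal axis) for each tested probe set of 7 lists of genes around the NMDA receptor, with a bar at each list's median over 3 pools per line. The medians lie between 0.02 and 0.34, and no probe set passed the test.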

How the data were processed

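Total RNA of hippocampal pools was measured on 6 one-colour arrays. In the deposited table every probe set has 1 linear intensity for each array. These values are already scaled to a common trimmed mean (2% trimmed at each end), as found from the values themselves, and their software is not given in the sources used here. Neither detection calls nor probe sequences were used here, so signal over background is unknown. The small number of arrays limits the precision.

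The 59 array controls were left out, values under the 10th percentile (8.9) were set to it, log2 was taken and the dimmest 25% of probe sets by mean were dropped, leaving 6555. Symbols came from the platform annotation, updated through gene numbers to a RefSeq table of assembly GRCr8. Of 8740 probe sets, 7006 had 1 symbol (6985 matched), 308 several and 1426 none. SHA and SLA were compared in R 4.3.3 by limma 3.58.1 (intensity trend, two-sided), and ratios with exact permutation tests. The limma fit was first run on simulated data. These held no effect of pool number, so that run does not show how the fit behaves under one.

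Named were all subunit probe sets, the 4 pathway genes of smallest p (none had an unadjusted p under 0.05) and the 3 genes most like each subunit; others were added to explain a count or a list. Members, lists and tests were chosen with earlier results of these data known. Deviations of same-numbered pools from their line means correlated at 0.44, 0.68 and 0.13 for the numbers 1, 2 and 3, the last being weak. The main fit, with its standard errors and intervals, left the pool number out. It was used in the blocked fits, the differences within numbers and the sign-flip test. Any pairing by number comes from the data, not the labels.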

Additional observations from a re-analysis of the deposited data

How the results depend on the processing

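The 11 subunit differences gave 184 values under 17 other settings. None passed an adjusted p under 0.05, 165 kept their sign and 19 changed it. The filter settings, a lower floor, the fit without the intensity trend and the block alone cannot alter these differences. Their values are among the 165, so that count overstates how steady the signs were. The subunit count at that threshold was 0 in every setting run, also at an adjusted p under 0.10. The settings that left out both pools numbered 1 and that joined block with array weights were chosen after the data were seen. With block and weights 12 probe sets passed over all tested, no subunit among them, and 1 subunit probe set, Grin1 L19708_at, had an unadjusted p under 0.05 (-0.70 ± 0.30, adjusted p = 0.35 in limma). The count of 98 at an unadjusted p under 0.05 was 203 unfiltered, 63 when 50% of probe sets were filtered out, 345 under the replicate block, 354 under array weights and 871 under both. Single-pool omissions put it between 57 (SLA pool 3 omitted) and 152 (SHA pool 2 or SLA pool 2 omitted), with 62 when SHA pool 1 was omitted. The block changed no call on a subunit.

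Array weights gave 0.12 for Grin2a AF001423_at and 0.59 for Grin2c D13212_s_at. Without both pools numbered 1, differences were 0.025 for Grin2a AF001423_at, 0.46 for Grin2c D13212_s_at and 0.14 for Grin2d U08260_at, and ratios were -0.0026 for Grin2b and 0.025 for Grin2c over Grin1. Leaving out 1 pool gave -0.028 to 0.47 for Grin1 S39221_g_at, -0.31 to 0.71 for U11418_s_at, -0.32 to 0.11 for Grin2a AF001423_at, -1.24 to 0.19 for D13211_s_at, -0.50 to 0.33 for Grin2c D13212_s_at, -0.76 to 0.20 for U08259_r_at, -0.13 to 0.77 for Grin2d D13213_s_at and -1.04 to 0.070 for U08260_at. The ratios over Grin1 ran from -0.14 to 0.21 (Grin2b), -0.70 to 0.23 (Grin2c) and -0.35 to 0.67 (Grin2d), the last also -0.28 when all probe sets of a gene were averaged. Grin2a over Grin2b ran from -0.55 to -0.21 with 1 pool left out and was -0.56 when all probe sets of a gene were averaged. The cause of these changes was not tested.

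Pools did not overlap for 0 to 3 subunit probe sets when 1 pool was left out (710 to 1030 of all tested): for 3 without SHA pool 1 (Grin1 L19708_at lower, Grin1 S39221_g_at and Grin2b U11419_at higher in SHA), against 13.4% of all tested, and for 2 without SLA pool 1 (Grin2b U11419_at and Grin2d D13213_s_at higher), against 14.1%. Without both it was 4, and 1588 (24.1%) of all tested; fewer pools overlap less often by construction.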
